A study of Mus musculus with 8 samples.

Results

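The genes described here are the pro-death members of the BCL-2 family, measured in mouse embryonic stem (ES) cells treated with cisplatin. They are Bak1 and Bok, which encode pore-forming effectors, and Bid, Bcl2l11, Bbc3, Pmaip1, Bad, Bik and Bmf, which encode proteins that share only the BH3 segment. Members were found by gene symbol: every probe set annotated with one of 10 names and no other gene was taken, and where a gene had several, the one with the highest average over the 8 arrays stood for it. This gave 21 probe sets for 9 genes, out of 28898 probe sets for 17098 genes. The tenth gene, the effector Bax, was not analysed here.

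The study hybridised 1 array per sample. Cisplatin, a platinum drug that crosslinks DNA, was given at 2.5 µM for 8 h to 4 samples, and the other 4 received the solvent dimethyl sulfoxide for 8 h. All 8 samples were HPRT deficient ES cells of strain C57BL/6 at passages 19 to 22, so the deficiency is shared by both groups. The cells were kept on feeder-coated plates and then for a passage on gelatin before the experiment. The replicates carry the numbers 3 to 6 in each group. The labels do not say whether replicates were grown separately; p-values here therefore reflect only how far these samples scatter, which can be technical, and the 4 arrays per group limit the precision.

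Cells that die through their mitochondria do so when BAX, BAK or BOK form pores in the outer mitochondrial membrane and cytochrome c leaks out. Survival proteins such as BCL-2, BCL-XL and MCL-1 hold the effectors in check. BH3-only proteins bind the survival proteins or the effectors and so tip the balance, and they answer to different, partly shared, kinds of stress. PUMA and NOXA, the products of Bbc3 and Pmaip1, are textbook targets of p53 after DNA damage, and ES cells are known to die readily when their DNA is damaged.

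Pairs of arrays from the same group had correlations of 0.997 to 0.998 across genes, and pairs from different groups 0.992 to 0.995. All 9 ES cell markers measured lay above the background of 3.10 in both groups, the level of nonspecific probes with 24 G or C, and their mean ran from 10.99 to 11.06 on the cisplatin arrays and from 11.22 to 11.24 on the control arrays. Of 17 fibroblast markers, 7 lay above background in each group and 10 below it in both, and their mean was 3.40 to 3.71 with cisplatin and 3.43 to 3.58 in the controls. Those above were Acta2 (8.58 with cisplatin and 8.43 in the controls), Col6a2 (3.71 and 3.68), S100a4 (3.75 and 3.58), Col3a1 (3.49 and 3.55), Col1a1 (3.37 and 3.46), Mmp2 and Thy1, and those below included Col1a2, Dcn, Lum, Twist2 and Fap. Of the 17, 2 rose at an adjusted p under 0.05 (limma), as did 11.6% of all genes. Thy1 rose by 0.61 ± 0.15 and Mmp2 by 0.60 ± 0.08 (log2 fold change ± SE). The Thy1 call was lost without control 3 (adjusted p = 0.0519), after quantile normalization again (0.49, 0.0524) and by an ordinary t statistic (0.0773). Their part in the results was not tested. The 3′ minus 5′ difference of the Actb control was 0.53 ± 0.01 with cisplatin and 0.54 ± 0.03 in the controls (SD, n = 4 each; two-sided exact permutation test, adjusted p = 0.543). Hprt read 4.84 ± 0.16 with cisplatin and 4.60 ± 0.37 in the controls, and whether its probes lie in an altered part of the gene is not given in the sources used here. In cultures read as a whole, more cells with a transcript and more transcript per cell cannot be told apart.

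The comparison asked which of these death genes changed within 8 h of cisplatin. Bbc3 and Pmaip1 each rose more than 2-fold, as did 0.877% of all genes, Bik, Bcl2l11, Bad and Bid rose by less, and Bak1, Bok and Bmf did not pass the test. In numbers, 6 of the 9 genes were higher and 0 were lower at an adjusted p under 0.05 (limma, Benjamini-Hochberg over 17098 genes), against 11.6% higher and 7.69% lower among all genes tested. At an unadjusted p under 0.05, 7 members were higher and 0 lower, against 18.4% and 12.7% of all genes. In each of the 18 alternatives 0 members were lower. Of the genes above background in a group, which includes all 9 members, 16.6% were higher at the adjusted threshold. The median log2 change was 0.30 over the members and 0.01 over all genes. In 6 of the 9 members, the same 6 that were called higher, the lowest cisplatin array lay above the highest control array. Of all genes 14.2% showed a separation in this direction. It rests on the same values as the calls and adds no support to them.

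The deposited scaling matters for the smaller changes. The median level of the tested genes was 0.13 higher on the cisplatin arrays, and centring each array on that median takes 0.13 off every change, so that the median change of all genes is -0.12. After centring, the calls among all genes were 1087 higher and 3925 lower, so that 21.7% of the calls were higher. As deposited they were 1989 higher and 1314 lower, with 60.2% of the calls higher. Bbc3, Pmaip1 and Bcl2l11 still passed, at 1.02, 1.03 and 0.23 (limma, adjusted p = 0.000485, 0.00146 and 0.0263). Bad at 0.17, Bid at 0.17 and Bik at 0.35 no longer did (adjusted p = 0.0604, 0.0822 and 0.0756). So 3 of 9 members were then higher, against 1087 of all 17098 genes.

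**Figure D1:**
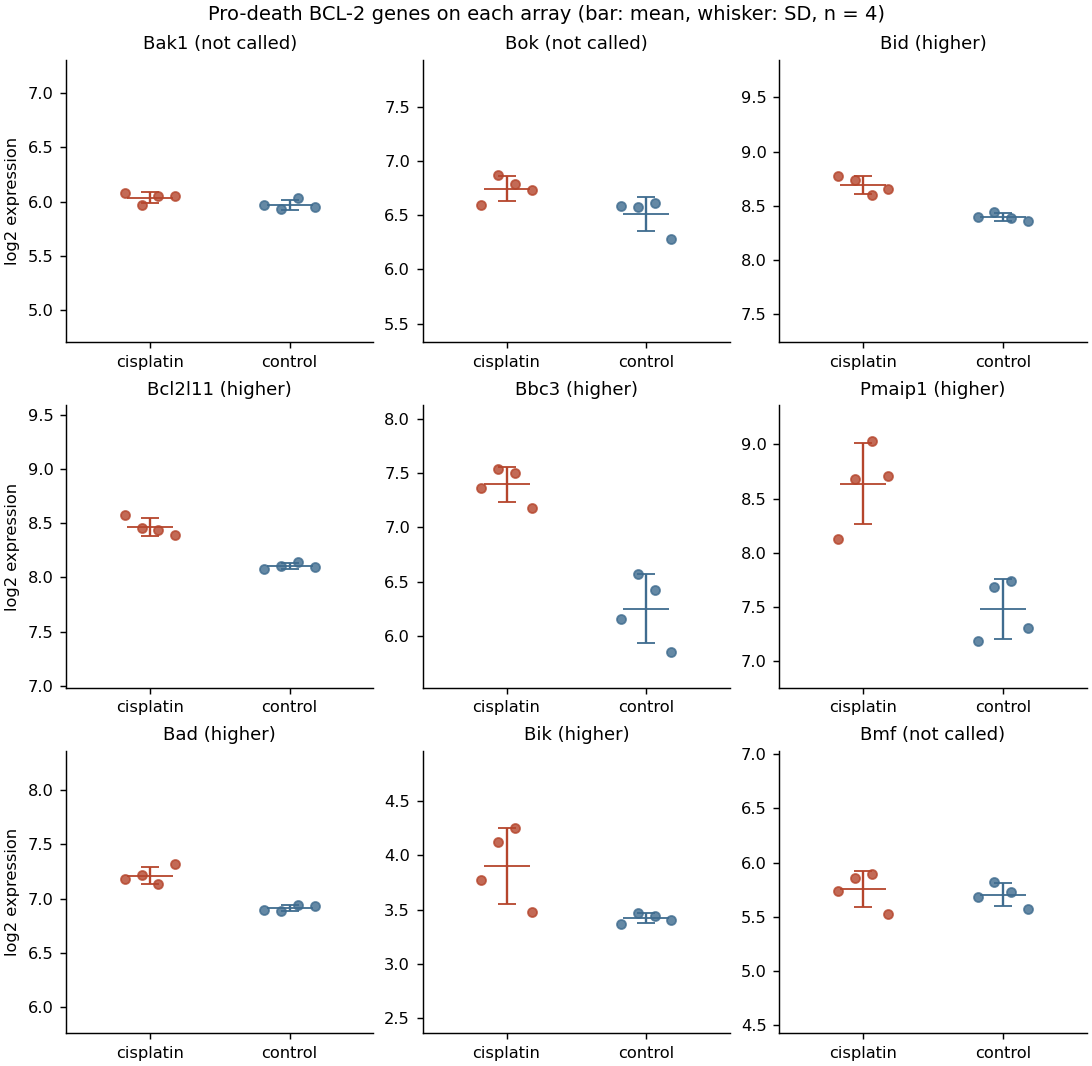
Log2 expression of the leading probe set of each of 9 genes, with 1 point per array, cisplatin left of control, and the mean with its SD (n = 4). Every panel spans the same number of log2 units. Bbc3 and Pmaip1 show the wide separations, while the points of Bak1, Bok and Bmf overlap between the groups.

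Among the BH3-only genes, Bbc3 encodes PUMA, which binds all the main survival proteins and can also engage the effectors directly. Its log2 expression was 7.37, 7.54, 7.50 and 7.18 on cisplatin arrays 3 to 6, against 6.16, 6.57, 6.43 and 5.85 on control arrays 3 to 6. The lowest cisplatin array stood 0.61 above the highest control array, and control 6 was the lowest of all. The rise was 1.15 ± 0.15 on the log2 scale, or 2.21-fold with a 95% confidence interval of 1.76 to 2.78 (limma, adjusted p = 0.000526). It ranked 106 among the 17098 genes by size of the rise.

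Pmaip1 encodes NOXA, which is known for its preference for MCL-1. It read 8.13, 8.68, 9.03 and 8.70 with cisplatin, against 7.19, 7.69, 7.74 and 7.30 in the controls. The groups did not overlap, with a gap of 0.39, but both groups spread widely, and cisplatin 3 lay nearest to the controls. The rise of 1.16 ± 0.19, or 2.23-fold with an interval of 1.67 to 2.98, placed it rank 103 among all genes (adjusted p = 0.00196). Its estimate and that of Bbc3 have overlapping intervals. Both genes passed in all 18 alternatives, at 1.01 to 1.25 for Bbc3 and 1.03 to 1.32 for Pmaip1. Each is read by 1 probe set, so no second measurement on the array bears on them.

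**Figure D2:**
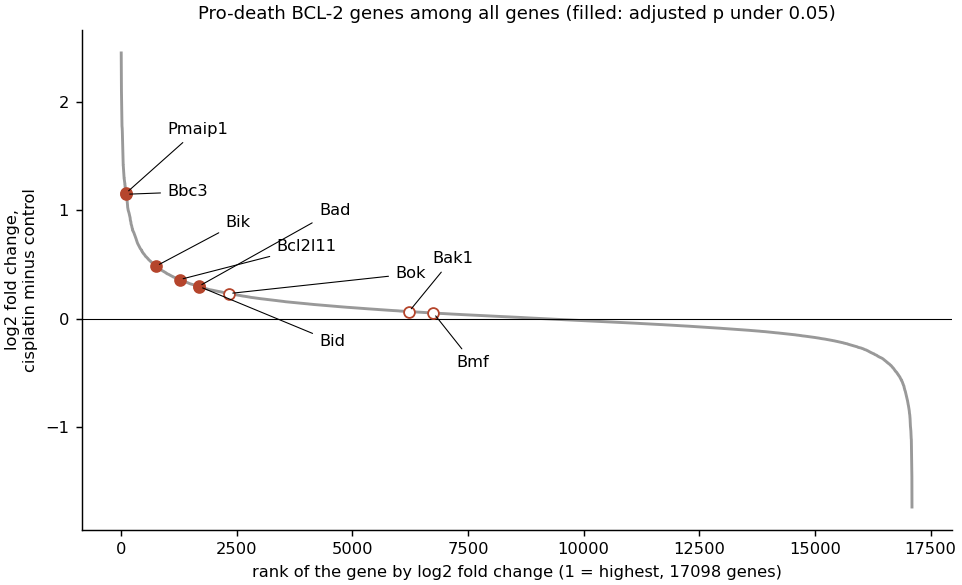
Log2 fold change of all 17098 genes in order of size (cisplatin minus control; grey line), with the 9 pro-death genes marked, filled where the adjusted p was under 0.05. Pmaip1 and Bbc3 hold ranks 103 and 106, and Bak1 and Bmf, at 0.07 and 0.05, lie on the flat part of the curve.

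Bcl2l11 encodes BIM, a BH3-only protein that binds all main survival proteins and that FOXO transcription factors are known to induce. Its leading probe set read 8.58, 8.45, 8.44 and 8.39 with cisplatin, against 8.08, 8.10, 8.14 and 8.09 in the controls. All cisplatin arrays were higher, by at least 0.25, and the controls lay close together. The change was 0.36 ± 0.06, or 1.28-fold (limma, adjusted p = 0.00151), smaller than that of Bbc3, whose interval of 0.82 to 1.48 lies above the 0.24 to 0.48 of Bcl2l11 (the difference itself was not tested). This gene has 5 probe sets, and when each was tested among all 28898, 3 were higher, at 0.30 to 0.38. The other two were at 0.26 ± 0.12 and 0.03 ± 0.11 (limma, adjusted p = 0.182 and 0.909). Taking the most variable probe set ended the call (0.26, adjusted p = 0.177), and on that probe set control 6 read 4.74 where the other controls read 5.11 to 5.34.

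The sequence before the start of Bbc3 and of Bcl2l11 is shown because both genes rose and both are known FOXO3 targets. Whether FOXO3 acted on either gene was not tested, and RNA does not measure the activity of the protein. Foxo3 RNA was at 7.76 ± 0.16 with cisplatin and 7.32 ± 0.13 in the controls (SD, n = 4 each). Its change was 0.43 ± 0.09 (limma, adjusted p = 0.00807). Of its relatives, Foxo4 was at -0.11 ± 0.05 and Foxo1, under background, at -0.10 ± 0.05 (limma, adjusted p = 0.196 and 0.199). After centring both were lower (-0.24 and -0.23, limma, adjusted p = 0.0168 and 0.0096), as were 3925 of all 17098 genes. Windows were taken from RefSeq (mouse build GRCm38.p6), with 250 bases before and 50 after a start. The 250 bases before the most upstream start listed for each gene are given 5′ to 3′ on the gene's strand, at chr2:128125788-128126037 (plus strand) for Bcl2l11 and chr7:16309333-16309582 (plus strand) for Bbc3. The last line is a site of 30 bases in another window of Bbc3, at chr7:16310083-16310112 (plus strand), before a later start. Capitals mark the FOXO heptamer GTAAACA on either strand, and the Bbc3 window before the first start holds none.
Bcl2l11: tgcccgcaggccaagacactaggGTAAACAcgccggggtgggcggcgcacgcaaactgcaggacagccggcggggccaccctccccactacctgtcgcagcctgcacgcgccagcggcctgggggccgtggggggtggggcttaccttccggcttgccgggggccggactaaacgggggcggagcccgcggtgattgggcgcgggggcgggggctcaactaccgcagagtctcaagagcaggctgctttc
Bbc3: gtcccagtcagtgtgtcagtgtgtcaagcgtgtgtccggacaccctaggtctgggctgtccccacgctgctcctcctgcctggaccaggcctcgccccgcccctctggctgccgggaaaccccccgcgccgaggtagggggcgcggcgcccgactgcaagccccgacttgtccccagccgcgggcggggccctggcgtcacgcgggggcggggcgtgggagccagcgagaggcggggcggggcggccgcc
Bbc3 site: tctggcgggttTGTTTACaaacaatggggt

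In Bcl2l11 the heptamer begins 227 bases before that start, and in Bbc3 it lies on the opposite strand, where its first capital is 167 bases before the later start. The search covered 13 windows of 7 of the 9 genes, without Bik and Pmaip1, whose promoters were not analysed here, and 2 of these windows held the heptamer, against 3.65% of all 32851 windows. In the same windows the p53 half-site RRRCWWGYYY was searched on both strands, with R for A or G, W for A or T and Y for C or T. Only a match in every letter counted. The half-site matched in 1, a window of Bmf before a later start, against 8.36% of all windows. That site lies on the minus strand at chr2:118544781-118544810, with the match in capitals, in a gene that did not pass the test.
Bmf site: cccaagtgaaGGGCTTGCCTcttgccgaat

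None of the 13 windows held 2 such exact half-sites within 13 bases of each other, as did 0.0731% of all windows. A p53 site with any mismatch, also in the Bbc3 window shown, would go uncounted and unmarked. The octamer TGATGCAA of CHOP and ATF factors, found in 0.895% of all windows, was in none of the 13 either. A match in these letters is a description, and a window without one says nothing about the factor. The share of G and C was 74.7% to 78% in the windows of Bbc3 and 71% and 74% in those of Bcl2l11. It was 65.7% and 66% for Bad and 63.3% for Bid. Bak1 had 58.3%, Bok 56.3% and Bmf 53.3% to 58.7%. The share over all windows was not taken, and a link with the calls was not tested.

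Bid, which caspase-8 cuts into the form that activates BAX and BAK, read 8.77, 8.74, 8.60 and 8.66 with cisplatin, against 8.39, 8.44, 8.39 and 8.36 in the controls. The groups were 0.16 apart, and the change was 0.30 ± 0.06, or 1.23-fold (limma, adjusted p = 0.00465). A second Bid probe set was also separated between the groups, at 0.24 ± 0.08, without passing among all probe sets (adjusted p = 0.0746), and the remaining one, under background in both groups, was at 0.02 ± 0.10. The Bid call was lost when the most variable probe set (0.24, adjusted p = 0.0797) or the mean of the probe sets (0.18, adjusted p = 0.0665) stood for the gene. Casp8 itself was at 0.16 ± 0.08 (limma, adjusted p = 0.226), with 4.05 ± 0.12 with cisplatin and 3.90 ± 0.12 in the controls (SD, n = 4 each).

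Bad, whose protein is held inactive by 14-3-3 proteins when survival kinases phosphorylate it, read 7.18, 7.21, 7.13 and 7.32 with cisplatin, against 6.90, 6.88, 6.94 and 6.93 in the controls. The control arrays lay close together, and every cisplatin array was at least 0.19 above them. The change was 0.30 ± 0.06, or 1.23-fold (limma, adjusted p = 0.00419). Its second probe set gave 0.41 ± 0.07 (adjusted p = 0.00333), so both Bad probe sets were higher. Without any single array the change stayed between 0.26 and 0.32, with an adjusted p of at most 0.0153.

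Bik, known for acting at the endoplasmic reticulum, was close to background. Its leading probe set read 3.78, 4.12, 4.25 and 3.48 with cisplatin, against 3.37, 3.47, 3.44 and 3.40 in the controls. The groups touch: cisplatin 6 was 0.003 above the highest control, while cisplatin 4 and 5 stood well clear. The change of 0.49 ± 0.14 just passed (limma, adjusted p = 0.0419). It no longer passed without cisplatin 4 (0.41, adjusted p = 0.107), cisplatin 5 (0.37, 0.0956), control 3 (0.47, 0.0956), control 4 (0.50, 0.0732), control 5 (0.49, 0.0819) or control 6 (0.48, 0.0845). That probe set is of the kind that can match several transcripts. A second Bik probe set read 3.74 to 4.00 with cisplatin and 3.16 to 3.41 in the controls, a change of 0.64 ± 0.08 (adjusted p = 0.00039), and the third gave 0.18 ± 0.07 (adjusted p = 0.101).

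Bmf, which is tethered to the cell's motor complexes and freed by loss of attachment, read 5.74, 5.86, 5.90 and 5.53 with cisplatin, against 5.68, 5.83, 5.73 and 5.58 in the controls. The groups overlapped, with cisplatin 6 the lowest of the 8. This leading probe set is of the kind that can match several transcripts. The difference was 0.05 ± 0.09 with a 95% interval of -0.15 to 0.25, which leaves out changes as large as those of Bbc3 or Pmaip1. Its other two probe sets were at -0.07 ± 0.09 and -0.17 ± 0.14, and none of its 3 passed.

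**Figure D3:**
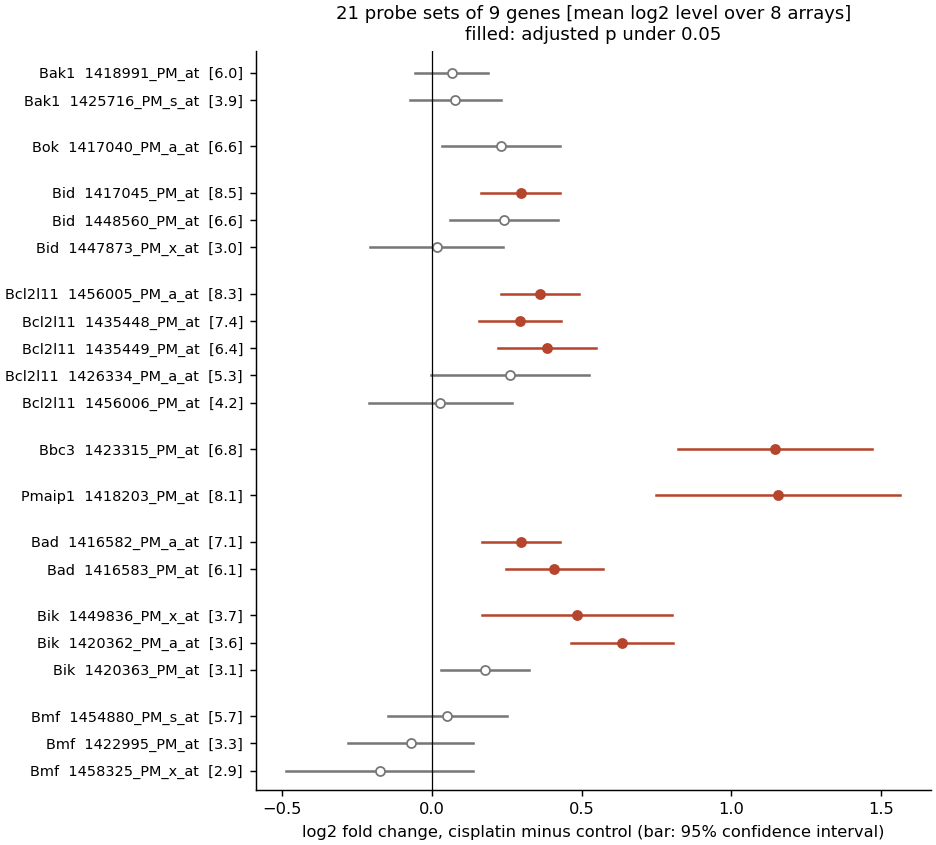
Log2 fold change (cisplatin minus control, horizontal axis) with its 95% confidence interval for all 21 probe sets of the 9 genes, with the mean log2 level over 8 arrays in brackets, filled where the adjusted p over 28898 probe sets was under 0.05. The 10 filled points are all on the right of 0 and belong to 6 genes, and none of the probe sets of Bak1, Bok or Bmf is filled.

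Counted over probe sets, 10 of 21 were higher and 0 lower (limma), against 8.6% higher and 7.69% lower of all 28898. In 12 of the 21 every cisplatin array was above every control array, against 11.3% of all probe sets. Of the 21, 19 were above background in at least 1 group and 2 were below it in both. Probe sets of a gene read the same samples and are not replicates of each other.

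Neither effector gene passed the test. Bak1, whose protein sits in the outer mitochondrial membrane of healthy cells, read 6.07, 5.97, 6.05 and 6.05 with cisplatin, against 5.97, 5.93, 6.04 and 5.95 in the controls. The groups overlapped, the difference was 0.07 ± 0.05 (limma, adjusted p = 0.447), and its interval of -0.05 to 0.18 is the narrowest among the 9 genes. Bok, an effector that can form pores without BAX and BAK, read 6.60, 6.87, 6.79 and 6.73 with cisplatin, against 6.59, 6.57, 6.62 and 6.28 in the controls. Cisplatin 3 fell among the controls, and control 6 stood apart below the rest. The Bok difference was 0.23 ± 0.09 (adjusted p = 0.0996), with an interval of 0.03 to 0.43, and it did not pass in any of 18 alternatives (lowest adjusted p = 0.0620). The difference between effectors and BH3-only genes was not tested as such.

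Different arrays led for different genes. Cisplatin 3 was the highest treated array for Bid, Bcl2l11 and Bak1 and the lowest for Pmaip1 and Bok. Cisplatin 6 was the lowest treated array for 4 of the 9 genes, Bbc3, Bik, Bcl2l11 and Bmf, and the highest for Bad. Among the controls, control 6 was the lowest for 4 genes and control 5 the highest for 5. No array was lowest or highest of its group for all 9 genes.

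The genes with the pattern nearest to that of Bbc3 were Vpreb1, Zfp688 and Ptpn14, with root mean square differences of 0.08, 0.09 and 0.12 log2 units over the 8 arrays after each gene's own mean was taken off. They changed by 1.02 ± 0.13, 1.14 ± 0.13 and 1.06 ± 0.11. Vpreb1 encodes a surrogate light chain of the pre-B cell receptor, and Ptpn14 a tyrosine phosphatase. Nearest to Pmaip1 were Abhd4, Wnt9a and Commd3, each at 0.13 to 0.14, with changes of 1.18 ± 0.12, 1.09 ± 0.16 and 1.05 ± 0.14. Wnt9a encodes a secreted Wnt ligand and Abhd4 a lipid hydrolase. The likeness includes the shared difference between the groups, since all 8 arrays enter it.

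**Figure D4:**
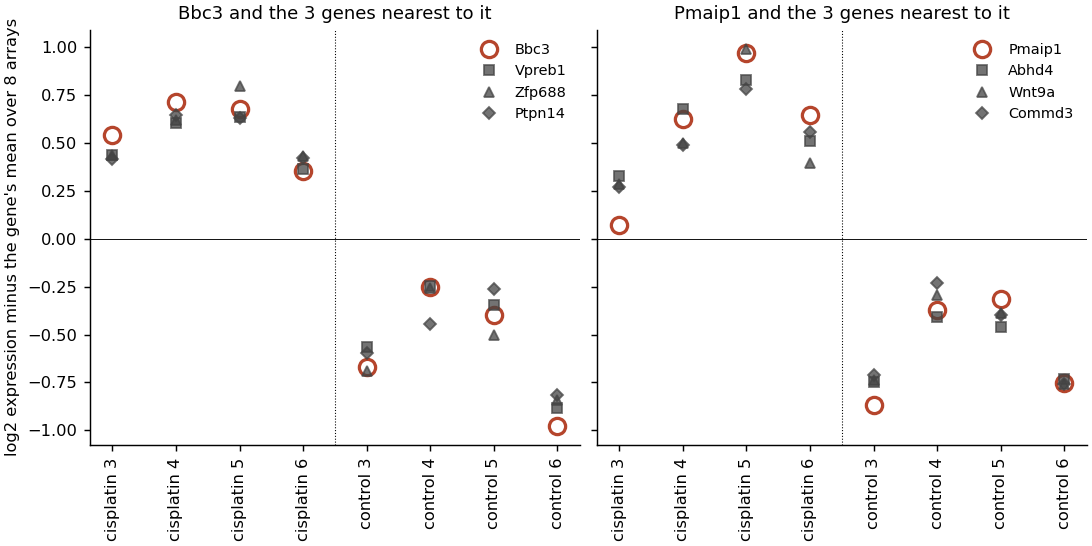
Log2 expression minus each gene's mean over 8 arrays, for Bbc3 (left) and Pmaip1 (right) as open circles and the 3 genes nearest to each as filled symbols, with cisplatin arrays left of the dotted line and control arrays right of it. All 4 genes of each panel are above their mean on the cisplatin arrays and below it on the controls, and cisplatin 3 is the treated array where Pmaip1 lies farthest below its 3 neighbours.

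On the survival side of the family, 1 of 6 survival genes measured was higher and 0 lower (limma), against 11.6% and 7.69% of all genes. Their median was 0.01. At an unadjusted p under 0.05 also 0 were lower. After centring 1 was lower, as were 3925 of all 17098 genes. The higher one was Bcl2l10, an egg-expressed survival gene, at 3.44, 3.53, 3.63 and 3.55 with cisplatin, against 3.02, 3.17, 2.85 and 2.89 in the controls. The change was 0.56 ± 0.08 (limma, adjusted p = 0.000954), with the treated arrays just above background and the control mean of 2.98 below it. Bcl2l1, the gene of BCL-XL, read 6.61, 6.58, 6.41 and 6.54 with cisplatin and 6.65, 6.62, 6.57 and 6.54 in the controls, a difference of -0.06 ± 0.06. Mcl1, the main partner of NOXA, read 11.41, 11.46, 11.41 and 11.46 with cisplatin and 11.47, 11.47, 11.46 and 11.52 in the controls, at -0.05 ± 0.05 (adjusted p = 0.569). The Mcl1 direction is not settled: it was lower after centring (-0.18, adjusted p = 0.0329) and higher by its most variable probe set (0.26, adjusted p = 0.0196). Bcl2 was at 0.15 ± 0.11 (adjusted p = 0.415), close to background in both groups.

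Among 11 other relatives, counted as the further BCL-2 homologues and BNIP genes, 0 passed in either direction by limma. Of all genes, 11.6% were higher and 7.69% lower. At an unadjusted p under 0.05, 1 relative was higher and 2 were lower, against 18.4% and 12.7% of all genes. After centring, 3 relatives were lower, as were 3925 of all 17098 genes. The one with the smallest p, the mitophagy receptor gene Bnip3l, was at 0.14 ± 0.05 (adjusted p = 0.0766) and passed among genes above background (0.0370), with an intensity trend (0.00738) and by an ordinary t statistic (0.0141). The related Bnip3 was at -0.29 ± 0.12 (adjusted p = 0.124) and was lower after centring (-0.42, 0.0194) and with an intensity trend (0.0363). Hrk, a BH3-only gene known from neurons, was at -0.21 ± 0.09 (adjusted p = 0.143) and passed as lower after centring (-0.34, 0.0145), after quantile normalization again (-0.33, 0.0304), by the mean of its probe sets (-0.23, 0.0327) and without cisplatin 6 (-0.29, 0.0358). Bcl2l13 was at -0.12 ± 0.06 (adjusted p = 0.224) and was lower after centring (-0.25, 0.0198).

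Downstream of the pore, 4 of 14 genes of the death machinery were higher and 0 lower (limma), against 11.6% and 7.69% of all genes. Their median was 0.12. At an unadjusted p under 0.05 also 0 were lower. After centring 2 were higher and 1 lower, against 1087 and 3925 of all 17098 genes. Dffb, which encodes the nuclease that cuts DNA in dying cells, read 5.07, 5.57, 5.57 and 5.34 with cisplatin, against 4.24, 4.11, 4.37 and 3.83 in the controls. It rose by 1.25 ± 0.14 (limma, adjusted p = 0.000212). Apaf1, the scaffold of the apoptosome that cytochrome c assembles, read 8.69, 8.84, 8.97 and 8.63 with cisplatin and 7.59, 7.81, 7.88 and 7.55 in the controls, and rose by 1.07 ± 0.10. Casp9, the initiator caspase on that scaffold, rose by 0.30 ± 0.07 (adjusted p = 0.0096), though not by its most variable probe set (0.08, adjusted p = 0.745), the mean of its probe sets (0.19, 0.0990) or after centring (0.17, 0.0645). The executioner gene Casp6 was at 0.30 ± 0.08 (adjusted p = 0.0321) and lost its call without cisplatin 3, 4 or 5 or control 3 or 5 (adjusted p = 0.0698 to 0.0893). It was also lost by the mean of its probe sets (0.09, 0.390), after quantile normalization again (0.22, 0.114), after centring (0.17, 0.170) and by an ordinary t statistic (0.0795). Cycs, which encodes cytochrome c, was at 0.08 ± 0.05 (adjusted p = 0.389).

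**Figure D5:**
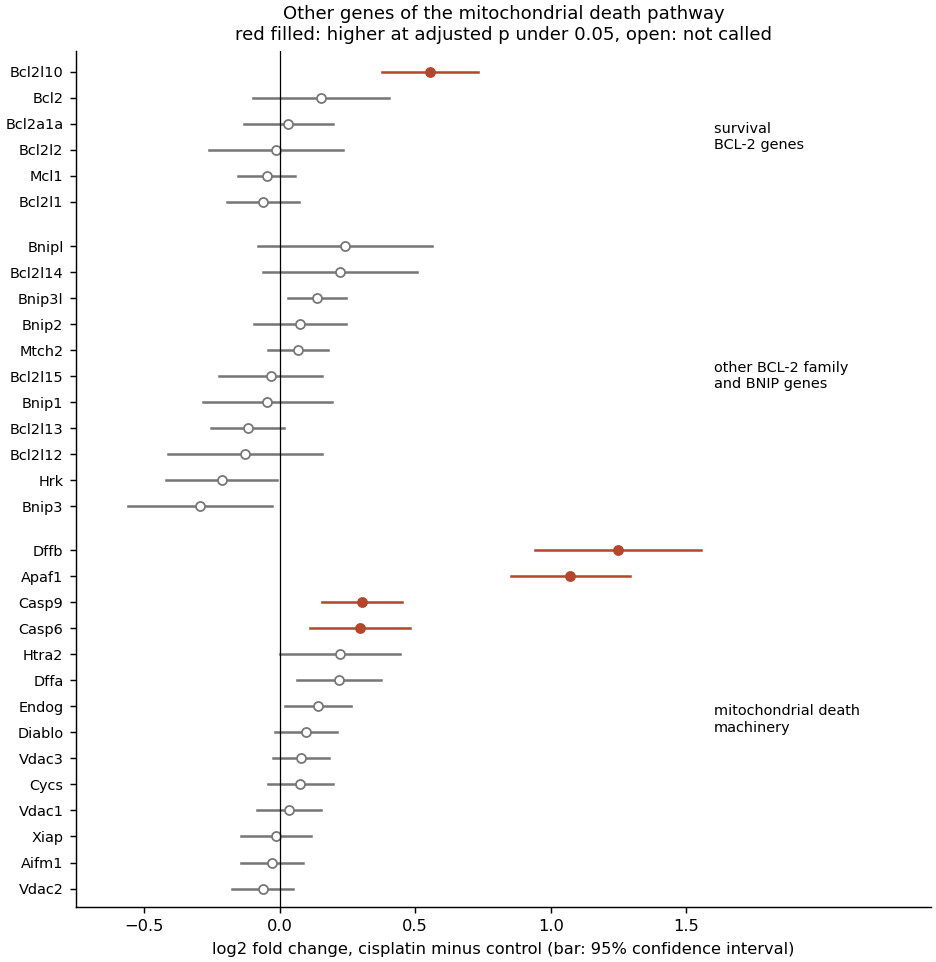
Log2 fold change (cisplatin minus control, horizontal axis) with its 95% confidence interval for 6 survival genes, 11 other relatives and 14 genes of the mitochondrial death machinery, filled where the adjusted p was under 0.05. The filled points, Bcl2l10, Dffb, Apaf1, Casp9 and Casp6, lie right of 0, and the open ones lie between -0.29 and 0.24.

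Of 21 genes whose proteins act on the members, 4 were higher and 4 lower, 19.0% each, against 11.6% and 7.69% of all genes. Of genes above background in a group, which includes all 21, 16.6% were higher, close to the share in this list. The list's median was 0.02. After centring 2 were higher and 7 lower, against 1087 and 3925 of all 17098 genes. Higher were Siva1, a pro-apoptotic p53 target, by 0.41 ± 0.05, the kinase genes Mapk9 and Akt1 by 0.26 ± 0.05 and 0.28 ± 0.06, and Sfn, the 14-3-3 sigma gene, by 0.69 ± 0.18 (limma, adjusted p = 0.000517, 0.00667, 0.0139 and 0.0218). Lower were Pim1, a kinase gene whose product phosphorylates BAD, at -0.39 ± 0.05, and Huwe1, a ubiquitin ligase gene for MCL-1, at -0.24 ± 0.05. The others were Pim3 at -0.27 ± 0.07 and Itch at -0.21 ± 0.06 (adjusted p = 0.0317 and 0.0393). Itch was at 0.37 by its most variable probe set and at 0.06 by the mean of its probe sets, so its direction turned with the choice of probe set, and Huwe1 did not pass by its most variable one (-0.37, adjusted p = 0.0562). The Sfn call was lost without cisplatin 4 or 5 (adjusted p = 0.0529 and 0.0625) and that of Pim3 without cisplatin 3, 5 or 6 or control 3, 4 or 6 (0.0583 to 0.0850). That of Itch was lost without any array but cisplatin 3 (0.0505 to 0.103). Centring ended the calls of Mapk9 and Akt1 (adjusted p = 0.124 and 0.170), and that of Akt1 was also lost with its most variable probe set (0.08, adjusted p = 0.726), the mean of its probe sets (0.11, 0.144) and quantile normalization again (0.18, 0.124). An ordinary t statistic ended the calls of Sfn, Pim3 and Itch (adjusted p = 0.0918, 0.0688 and 0.0548).

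Among 16 genes of factors known to act on member genes, 5 were higher and 2 lower, against 11.6% and 7.69% of all genes. Their median was -0.04. After centring 5 were higher and 6 lower, against 1087 and 3925 of all 17098 genes. Trp73, a relative of p53 that can drive Bbc3, rose by 2.10 ± 0.14, Jun by 1.03 ± 0.13, the p53 cofactor gene Ppp1r13b by 0.62 ± 0.06 and Egr1 by 0.47 ± 0.09, beside Foxo3 as above. Atf4, a stress factor upstream of Bbc3 and Pmaip1 in the integrated stress response, fell by 0.91 ± 0.08 on the log2 scale (limma, adjusted p = 5.78e-05), and its partner Ddit3 was at -0.30 ± 0.11 (adjusted p = 0.104) and was lower after centring (-0.43, 0.0134), after quantile normalization again (-0.39, 0.0264) and without control 6 (-0.39, 0.0230). Trp53bp2 was at -0.24 ± 0.07 (adjusted p = 0.0405), and its call did not hold without cisplatin 3, 4 or 6 or control 3, 4 or 6 (highest adjusted p = 0.104), by its most variable probe set (0.0540), by the mean of its probe sets (-0.16, 0.0835) or by an ordinary t statistic (0.0761).

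All 17 other p53 targets listed, none of the BCL-2 family but some, such as Perp, Aen, Ei24 and Trp53inp1, also known for roles in cell death, were higher (limma; 17 also after centring, while Aen did not pass by its most variable probe set, adjusted p = 0.0717), with a median of 1.15. Examples were Btg2, an antiproliferative gene, at 2.22 ± 0.12, Plk2, a polo-like kinase gene, at 2.25 ± 0.15, Phlda3 at 1.64 ± 0.12 and Ephx1 at 2.06 ± 0.16. Of all genes 11.6% were higher, and 1087 of 17098 after centring, but the list was written with earlier results of these arrays known. The changes of Bbc3 and Pmaip1 lie at about that median.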

How the data were processed

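RNA of 8 mouse ES cell samples was measured on 1 Affymetrix array each, after 3′ labelling with biotin, per the labels' protocols. The authors deposited log2 expression values, 1 column per array, and the submitters' processing notes name RMA and limma without versions. RMA normalizes between arrays, and so cannot show a change in the total RNA of a cell. Column medians ran from 3.35 to 3.38.

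Of 45141 probe sets, 104 are controls, 28898 have 1 gene in the platform annotation, 551 several and 15588 none listed; only those with 1 gene were used. Symbols were updated by Entrez identifier through a RefSeq table (GRCm38.p6), which held 16937 of 17098 genes. The 2 groups were compared with limma 3.58.1 in R 4.3.3 (lmFit, eBayes, group as the only term), adjusted by Benjamini-Hochberg over all 17098 genes, or over 28898 probe sets for single probe sets, at a threshold of 0.05. No filter on dim genes was applied. The fit was tested on simulated data for 17098 genes, drawn from their own levels and variances: 98 of 100 genes changed by 1 in size and 74 of 100 changed by 0.5 were recovered, with 6 false calls. Far fewer genes changed there than the 3303 called in the data, and no size under 0.5 was tried. These rates therefore need not hold for the comparison itself.

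Named genes are all members, the 4 genes of each list with the smallest p, further called ones where 5 or fewer were called in a direction, and Hprt, Pou5f1, Nanog and Sox2. The members with a change of at least 0.5 also have their 3 nearest genes. Casp8, Cycs, Ddit3, Pim2, Bnipl, Htra2, Foxo1, Foxo4, Perp, Aen, Ei24, Trp53inp1 and the other fibroblast genes were added after their values were seen. Members, lists and motifs were chosen with earlier results of these data known. Same-numbered arrays of the 2 groups were checked for shared deviations, and the numbers were not taken to pair them. Python 3.11.15 and matplotlib 3.10.9 made the figures.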

Additional observations from a re-analysis of the deposited data

Results flagged for a closer look

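Among 18 groups of 4 values, 2 for each of the 9 genes, 1 held a value far from the others: Bok on control 6, at 6.28, against 6.57 for the nearest control. The gap was 0.866 of the group's range, above the 95% critical value of Dixon's test for 4 samples. Chance gives about 1 such value in 20 groups. Without control 6 the Bok change was 0.15 (limma, adjusted p = 0.187), and with it 0.23 (adjusted p = 0.0996).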

How the results depend on the processing

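Centring each array on its median took the genes called to 5012 (1087 higher and 3925 lower), the members called higher to 3 and their probe sets called to 6. By construction it lowers each change by 0.13. No other alternative moved these counts by over 1.5 times, and no member was lower in any. Leaving out 1 array gave 2617 to 3042 genes called, 1580 to 1871 higher and 1037 to 1246 lower, 5 to 6 members higher and 9 to 10 member probe sets. Quantile normalization again gave 1575 higher and 1711 lower among all genes. Under it 5 members were higher, Bik being lost (0.39, adjusted p = 0.0662); an ordinary t statistic also lost it (adjusted p = 0.128). With the most variable probe set 4 members were higher, Bid and Bcl2l11 being lost. The uncalled Bak1 and Bmf differences turned negative after centring (-0.07 and -0.08) and quantile normalization again (-0.04 each). Bmf did so also by its most variable probe set (-0.17) and by the mean of its probe sets (-0.06). Omitting probe sets that can match several transcripts, an alternative chosen after seeing the data, gave Bik 0.64 (adjusted p = 0.000347) and the uncalled Bmf -0.07.

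Same-numbered arrays deviated together with correlations of 0.199, 0.181, 0.200 and 0.0649, and 7 of 8 arrays correlated best with their own number; control 6 did so with cisplatin 3. With the replicate block, 3447 genes, 6 members (all higher) and 10 member probe sets were called, and no call among the 9 genes changed. Among the other listed genes the block ended the calls of Itch (adjusted p = 0.0552) and Trp53bp2 (0.0678) and called Bnip3 (-0.29, 0.0147), Pim2 (-0.38, 0.0114) and Ddit3 (-0.30, 0.0454) lower and Bnipl (0.24, 0.0356) and Htra2 (0.22, 0.0366) higher. Signal over background limits Bik, and Bcl2 and Bcl2l10 outside the members.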

Other observations

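Of the ES cell markers, 5 of 9 were lower with cisplatin and 0 higher (limma), against 7.69% and 11.6% of all genes. After centring, 7 were lower, as were 3925 of all 17098 genes. Esrrb fell by 0.55 ± 0.07 on the log2 scale and Klf4 by 0.40 ± 0.07. Zfp42 was at -0.34 ± 0.06 and Utf1 at -0.22 ± 0.05 (adjusted p = 0.00501 and 0.0119), while Sox2 was at -0.12 ± 0.05 and Pou5f1 at -0.04 ± 0.06 (adjusted p = 0.134 and 0.674). Nanog was at -0.25 ± 0.06 (adjusted p = 0.0210), a call lost without cisplatin 4 or 5 or control 3 or 6 (adjusted p = 0.0517 to 0.0603). Sox2 and Pou5f1 passed after centring (adjusted p = 0.00702 and 0.0443), and Sox2 also with an intensity trend (0.0108) and by an ordinary t statistic (0.0276).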
